A study of Glycine max with 12 samples.

Results

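In the immature soybean seed coat, 40 of the 56044 genes in the deposited table had a level much higher in the future yellow part of the coat than in the future black saddle, in both of the lines studied. They were chosen by the measurement itself: the mean log2(RPKM + 1) of the 3 yellow libraries was at least 2 above that of the 3 black libraries in Clark 8 and also in Clark 18a. RPKM is the number of read hits scaled to transcript length and to the total hits of the library, and each gene was represented by its transcript model with the longest cDNA. Because the region difference chose these genes, it is described here and not tested. Tests across genes used the 30775 genes that reached 1 RPKM in 3 or more of the 12 libraries, and all 40 were among them.

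The seed coat is maternal tissue that encloses the embryo, feeds it and protects the mature seed. Pigment in soybean coats depends on flavonoid synthesis, and the dominant forms of the I locus keep regions of the coat yellow by RNA silencing of chalcone synthase, the enzyme that opens the flavonoid pathway. Clark 8 has the genotype i-k, K1, whereas Clark 18a is i-i, k1. Both lines form a black saddle on a yellow coat, and the series title links K1 to Argonaute5, one of the small RNA effector proteins of silencing. A difference between the lines therefore cannot be assigned to 1 of the loci.

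Plants were raised in a greenhouse, and polyadenylated RNA came from freeze-dried coats of seeds of 100 to 200 mg fresh weight. The coats were freed from the cotyledons and divided into the future black saddle and the future yellow sections. The 4 groups were the black saddle and the yellow region of each line, with 3 biological repeats each, and nothing says whether the repeats were separate plants. Summed hits ran from 83123127 to 192296346 per library, and the 4 libraries of repeat 3 were the shallowest, at no more than 89505760. Those 4 carry successive library numbers, whereas repeats 1 and 2 are numbered by line. The deposited identifiers come without gene names, so the genes are given by identifier, no function is stated for any of them, and the labelled tissue could not be checked against marker genes. Each library is bulk tissue, in which fewer cells of a type and less RNA per cell cannot be told apart.

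The genes together formed a small part of the transcript pool in black and a larger one in yellow. Their summed RPKM was 953 ± 119 in Clark 8 black and 5322 ± 1415 in Clark 8 yellow (mean ± SD, n = 3 here and below). In Clark 18a the black libraries gave 482.9, 786 and 557 (mean 608.6), and the yellow sum was 3293 ± 477. These sums were 0.268% and 1.6% of the RPKM of all genes in Clark 8, and 0.177% and 1.01% in Clark 18a. A single gene, Glyma.09G092700, made up between 17% and 72.6% of the sum, depending on the library.

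The region differences ran from 2.02 to 5.02 on the log2(RPKM + 1) scale in Clark 8, with a median of 2.53, and from 2.01 to 3.95 in Clark 18a, with a median of 2.78. In 24 genes the difference was larger in Clark 18a and in 16 it was larger in Clark 8. Every one of the 40 was higher in yellow in all 3 same-numbered pairs of both lines. The yellow libraries lay wholly above the black ones for 36 of the 40 in Clark 8 and for all 40 in Clark 18a, where 20.9% and 14.7% of all genes tested did so. In both lines at once it was 36 of the 40, against 9.39% of all genes tested. The rule used this contrast, so these counts describe the choice. Over all genes tested, 0.283% reached the difference of 2 in Clark 8, 0.263% in Clark 18a and 0.13% in both. The opposite rule, at least 2 higher in black in both lines, was met by 292 genes, or 0.949% of those tested.

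**Figure D1:**
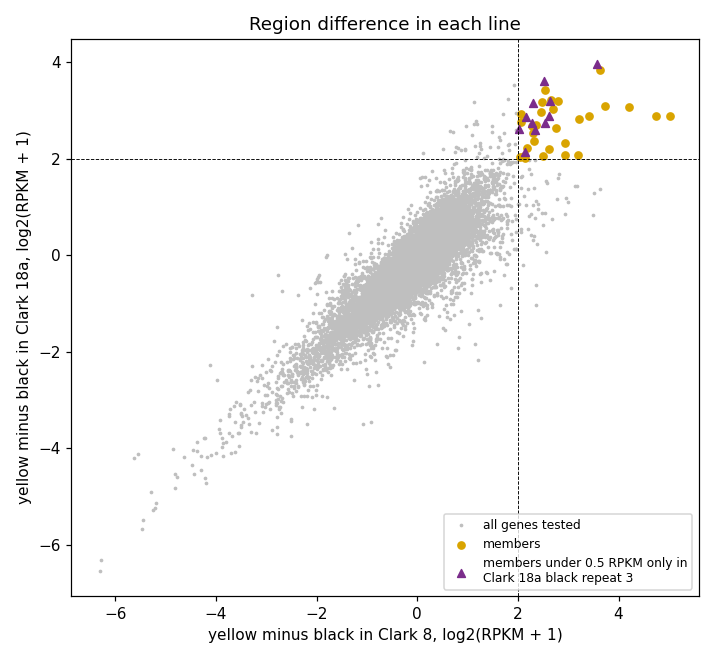
Yellow minus black difference in log2(RPKM + 1) in Clark 8 (x axis) and Clark 18a (y axis) for the 30775 genes tested, in grey, and the 40 members, in yellow and purple, with dashed lines at the threshold of 2. Purple triangles are 11 members that were under 0.5 RPKM in the third black library of Clark 18a and at least 3 RPKM in the other black libraries of that line, and the members reach 5.02 in Clark 8 and 3.95 in Clark 18a.

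At the threshold the values ran on without a gap. The members just inside were Glyma.07G142500, Glyma.05G016500 and Glyma.19G187200, whose smaller difference of the 2 lines was 2.03, 2.02 and 2.01. The genes just outside were Glyma.20G148100, Glyma.14G176500 and Glyma.18G232500, at 1.97, 1.97 and 1.96.

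The level in the black saddle divided the genes. In 13 the mean was under 1 RPKM in the black libraries of both lines, in 26 it was at least 1 in both, and 1, Glyma.10G186500, lay on either side of that value in the different lines. The gene with the largest smaller difference, Glyma.18G055300, was of the first kind. It measured 0.0836, 0.821 and 0.154 RPKM in Clark 8 black (repeats 1 to 3, in that order throughout) against 4.25, 44.1 and 17.1 in yellow. The Clark 18a values were 0.0727, 0.23 and 0.169 in black against 20.9, 20.5 and 8.54 in yellow. No black library reached the lowest yellow one, although the yellow libraries of Clark 8 differed among themselves by far more than those of Clark 18a.

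Glyma.11G161600, on another chromosome, had nearly the same profile at a lower level. Its black libraries gave 0.0578, 0.292 and 0.0863 RPKM in Clark 8 and 0.0408, 0.162 and 0.0934 in Clark 18a. Its yellow libraries gave 1.7, 17.7 and 9.09 in Clark 8 and 12.5, 12.8 and 4.33 in Clark 18a. The first yellow repeat of Clark 8 was the low one in both genes, and the third yellow repeat was the low one of Clark 18a in both. The deviations of the libraries from their group means correlated at 0.98 between these genes over the 12 libraries. Their coding lengths were 987 and 990 bases.

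Other members with little signal in black were steadier. Glyma.02G136100 was at 0.77, 0.3 and 0.267 RPKM in Clark 8 black and 7.69, 7.64 and 9.57 in Clark 8 yellow. In Clark 18a it was at 0.746, 0.416 and 0.065 in black and 11.6, 9.54 and 9.69 in yellow. The yellow libraries of the lines lay close together and far above every black library. Glyma.U035800, on an unplaced scaffold, reached no more than 0.585 RPKM in any black library and lay between 3.5 and 8.44 in the yellow ones.

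Glyma.08G339500, with a coding length of 177 bases, was nearly silent in Clark 18a black, at 0.0558, 0.116 and 0.023 RPKM. In Clark 8 black it measured 0.695, 1.12 and 0.0236. Its yellow libraries gave 25.6, 24.6 and 33.2 in Clark 8 and 14.7, 2.76 and 11 in Clark 18a, so the lowest yellow library was a Clark 18a one.

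Genes that kept a level in black included the most abundant of the 40. Glyma.09G092700 measured 205, 332 and 629 RPKM in Clark 8 black and 639, 3351 and 2531 in Clark 8 yellow. The Clark 18a libraries gave 107, 414 and 306 in black and 1160, 1712 and 918 in yellow. The highest black library of Clark 8 and its lowest yellow library nearly met, yet neither line had an overlap. Glyma.13G103100, the next most abundant, was at 327, 162 and 65.3 RPKM in Clark 8 black and 1076, 684 and 545 in yellow. In Clark 18a its black libraries gave 27.2, 45.1 and 86.6 and its yellow ones 339, 204 and 418.

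Glyma.10G276700 varied little among replicates. Its black libraries gave 7.27, 6.97 and 5.88 RPKM in Clark 8 and 6.36, 6.34 and 5.67 in Clark 18a. Its yellow libraries gave 40, 31.8 and 30.4 in Clark 8 and 34, 33.2 and 29.6 in Clark 18a. The ratio of the yellow to the black mean was 5.08 in Clark 8 and 5.27 in Clark 18a. It was singled out after its values were seen.

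Glyma.13G035200 and Glyma.04G024400 were high in yellow in both lines. Glyma.13G035200 measured 11.2, 19.6 and 7.84 RPKM in Clark 8 black and 108.2, 158.3 and 151.1 in yellow. Its Clark 18a values were 21.7, 21.9 and 9.63 in black and 180, 207 and 58.7 in yellow, where the third repeat was the low one in both regions. Glyma.04G024400 measured 32.7, 106 and 42.5 in Clark 8 black and 248, 468 and 339 in yellow. Its Clark 18a libraries gave 10.3, 19 and 85.2 in black and 226, 275 and 244 in yellow, so the third black repeat stood above the others. Glyma.06G024500 shared that feature, with 5.39, 10.4 and 23.2 in Clark 18a black, and the same coding length of 303 bases; the within-group deviations of these genes correlated at 0.88.

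**Figure D2:**
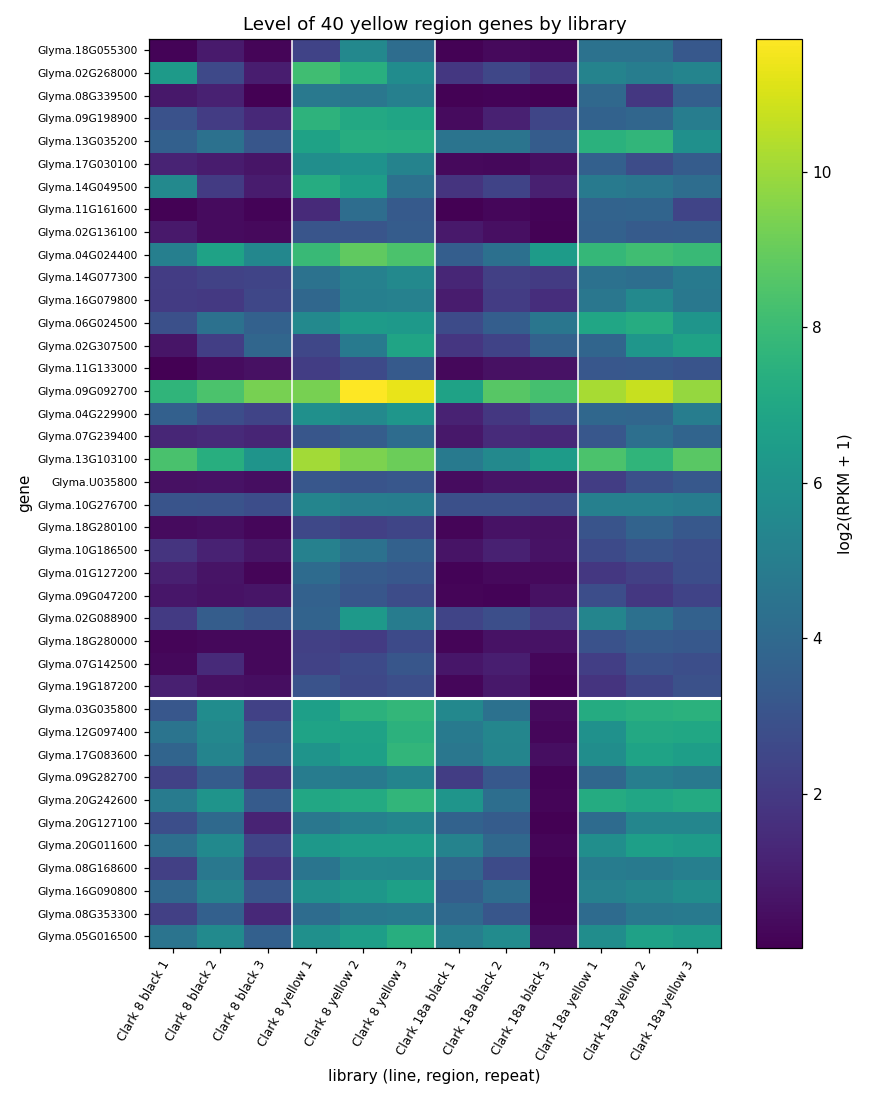
Level of each of the 40 genes (rows) in each of the 12 libraries (columns), as log2(RPKM + 1) on the colour scale, with the 11 genes that were near 0 only in the third black library of Clark 18a below the white line. Within a line the yellow columns are brighter than the black ones, except for the 4 genes whose regions overlapped in Clark 8, and below the line the Clark 18a black repeat 3 column is the darkest.

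For some members the choice in Clark 18a rested on a single library. In 11 of the 40 genes, Clark 18a black repeat 3 lay under 0.5 RPKM while both other black libraries of that line were at 3 RPKM or more, a division made after the values were seen. They were Glyma.03G035800, Glyma.12G097400, Glyma.17G083600, Glyma.09G282700, Glyma.20G242600, Glyma.20G127100, Glyma.20G011600, Glyma.08G168600, Glyma.16G090800, Glyma.08G353300 and Glyma.05G016500. In that library they ran from 0.0166 to 0.386 RPKM, or 1 to 37 hits per gene, and in the other 2 black libraries from 3.42 to 69 RPKM, with at least 455 hits. The same pattern was met by 308 genes tested (1%), of which 171 were higher in yellow in both lines. The low black library that defines the pattern raises the Clark 18a difference, so the 171 is set in part by the choice. Asked of each other library in turn, the pattern was met by 114 genes in Clark 18a yellow repeat 3. In any of the rest at most 16 genes met it, and none of the 40 was among all these.

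Glyma.03G035800 shows it at a high level. It measured 8.1, 50.8 and 3.86 RPKM in Clark 8 black and 97.1, 184 and 215 in yellow. In Clark 18a it measured 43.2, 19.7 and 0.289 in black, but 147, 165 and 177 in yellow. The yellow libraries were alike in both lines, and the black ones of Clark 18a were far apart.

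Glyma.20G242600 gave 28.5, 66.6 and 9.49 RPKM in Clark 8 black and 130, 141 and 212 in yellow. In Clark 18a it gave 69, 18.2 and 0.134 in black and 150, 122 and 145 in yellow. Glyma.12G097400 gave 22.3, 44.3 and 7.81 in Clark 8 black and 26.4, 41 and 0.17 in Clark 18a black. In each of these genes the third black repeat was the lowest of its line, and repeat 2 was the highest black library of Clark 8.

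Summed over the 11 genes, the black libraries gave 144, 394 and 61.3 RPKM in Clark 8 and 285, 232 and 1.71 in Clark 18a. The yellow libraries gave 687, 917 and 1316 in Clark 8 and 630, 896 and 891 in Clark 18a. The low sums were those of the third black repeats of both lines, and no yellow sum was as low as any black one. The other 29 genes had a median level of 0.739, 1.14 and 1.06 RPKM in the black libraries of Clark 18a, and 10 of the 29, Glyma.02G136100 among them, were lowest in repeat 3.

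The region difference of the 11 genes therefore depended on the repeat. In Clark 18a it ran from 0.11 to 1.80 in repeat 1, from 1.07 to 3.01 in repeat 2 and from 4.62 to 7.11 in repeat 3. In Clark 8 it ran from 1.37 to 3.43, from 0.77 to 1.83 and from 3.44 to 5.48. In the other 29 genes the medians over the repeats stayed between 2.28 and 2.96 in Clark 8 and between 2.47 and 2.92 in Clark 18a. Without Clark 18a black repeat 3, the difference in Clark 18a stayed at 2 or more in 1 of the 11, Glyma.03G035800 (2.44), and the others ran down to 0.97. It stayed at 2 or more in 25 of the other 29, where the lowest was 1.81. Without Clark 8 black repeat 3, the Clark 8 difference of Glyma.20G242600, Glyma.20G127100, Glyma.20G011600 and Glyma.08G168600 was 1.82, 1.59, 1.45 and 1.68. That of Glyma.16G090800, Glyma.08G353300 and Glyma.05G016500 was 1.65, 1.63 and 1.54, and the rest of the 11 stayed above 2. Among the other 29, Glyma.13G103100 (1.68) and Glyma.07G142500 (1.86) fell under 2.

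The 11 genes also varied together. Their within-group deviations over the 12 libraries gave a median correlation of 0.93 over the 55 pairs, and the lowest was 0.78. Among the other 29 genes the median was 0.06, and between the sets it was 0.01. The closest pair of all was Glyma.17G083600 and Glyma.05G016500, at 0.99, with coding lengths of 1011 and 1029 bases. The set was picked on the library that dominates these deviations, so the correlations describe the same feature. The genes lie on 8 chromosomes by identifier.

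**Figure D3:**
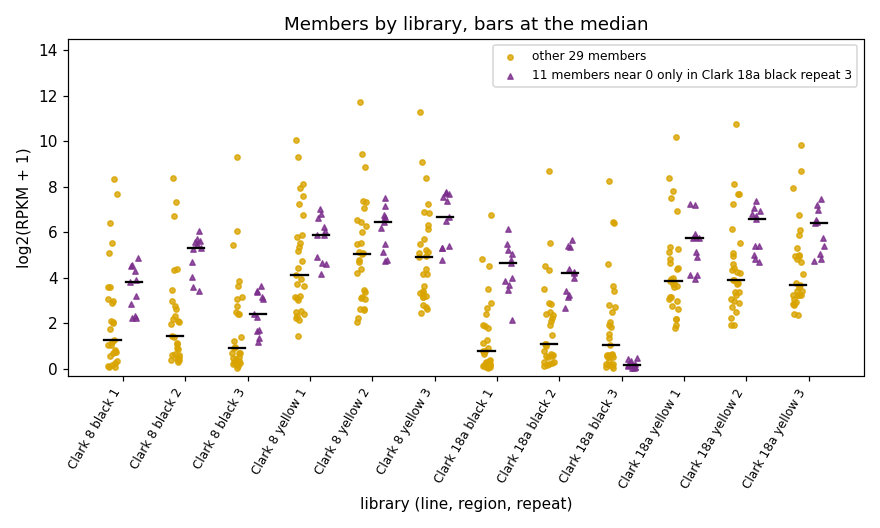
Level of the members in each library as log2(RPKM + 1), with the 11 genes that were near 0 only in Clark 18a black repeat 3 as purple triangles, the other 29 as yellow circles, and bars at the median of each set. The triangles reach at most 0.386 RPKM in Clark 18a black repeat 3, whereas the circles keep a median of 1.06 RPKM there.

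A pair of other genes with high values in single libraries was found in Clark 8. Glyma.02G268000 measured 84.2, 5.14 and 0.917 RPKM in Clark 8 black and 276, 165 and 50.7 in yellow. Clark 18a had 2.84, 4.67 and 2.58 in black and 37, 30.6 and 38.4 in yellow. Glyma.14G049500 followed it, with 45.6, 3.16 and 0.873 in Clark 8 black and 152, 90.7 and 20.2 in yellow, and their deviations correlated at 0.97. In both, repeat 1 of Clark 8 was high in both regions, and its black library lay above the yellow library of repeat 3. They account for 2 of the 4 genes whose Clark 8 regions overlapped, and the others were Glyma.02G307500 and Glyma.08G168600.

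A reading of the region difference that the choice did not use came from leaving 1 repeat out of the rule. Chosen by repeats 1 and 2 alone, 23 genes met the rule, 22 of them among the 40. In repeat 3 all 23 were higher in yellow in both lines, and 17 of them were at least 2 higher in both, against 46.5% and 0.4% of all genes tested. Their median difference in repeat 3 was 3.06 in Clark 8 and 2.51 in Clark 18a, where the medians of all genes tested were 0.09 and 0.04. Chosen without repeat 1, 46 genes met the rule, 37 of them among the 40. All were higher in yellow in both lines in that repeat (41.1% of all genes) and 14 reached 2 in both (0.0487%). Chosen without repeat 2, 53 met it, 38 of them among the 40. All were higher in yellow there (40.2%) and 18 reached 2 (0.0747%). The share reaching 2 was 73.9% in left-out repeat 3, 30.4% in repeat 1 and 34.0% in repeat 2. Clark 18a black repeat 3, near 0 in 11 of the 40, was read in the first case and entered the choice in the others. These are counts with no test.

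Whether the level of the genes differed between the lines was asked of the mean over both regions. This is another contrast than the rule's, but not independent of it: where black is near 0 the mean mostly follows the yellow level, which entered the rule, and Clark 18a black repeat 3 enters both. In limma's moderated test across all 30775 genes with Benjamini-Hochberg adjustment, 1 of the 40 was called at an adjusted p under 0.05, lower in Clark 18a, and 0 were called higher. Of all genes tested, 0.764% were called, 0.367% higher and 0.396% lower. That fit takes the 12 libraries as independent, whereas the same-numbered black and yellow libraries of a line deviated together from their group means, with correlations over all genes tested of 0.52 to 0.75. An alternative chosen after seeing the data averaged the regions per line and repeat, 3 values against 3. In that limma fit, 11 of the 40 and 2453 of all 30775 genes tested had an unadjusted p under 0.05. It called 0 of the 40 and 0.0162% of all genes. Counts in the other direction came from leaving out 1 library: without Clark 8 yellow, Clark 18a black or Clark 18a yellow repeat 3, 4 members were called, with 2.17%, 4.57% and 4.4% of all genes. With the repeat number as a block it was 6 members, 2 higher and 4 lower, with 6.17% of all genes. In the limma fit of 12 libraries without adjustment, 11 of the 40 had a p under 0.05, and so did 5468 of all genes tested. The estimate was below 0 in 31 of the 40, with a median of -0.49 on the log2 scale, and in 15506 of the 30775, with a median of -0.00 over all genes. All 11 genes near 0 in Clark 18a black repeat 3 were below 0, with a median of -0.55. That library lowers their Clark 18a mean, and Clark 8 black repeat 3, also low in them, lowers their Clark 8 mean. In yellow alone their line differences ran from -0.81 (Glyma.16G090800) to 0.05 (Glyma.03G035800). Of the other 29, 20 were below 0, with a median of -0.35.

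The called gene was Glyma.17G030100, with a coding length of 474 bases. It measured 1.25, 0.906 and 0.611 RPKM in Clark 8 black and 0.23, 0.195 and 0.419 in Clark 18a black. In yellow it measured 54.8, 62.8 and 36.8 in Clark 8 and 11, 5.64 and 9.6 in Clark 18a. Every Clark 18a library was below every Clark 8 library of the same region. The averaged level was lower in Clark 18a, at a difference of -1.51 (SE 0.17 and adjusted p = 0.00292 by limma), and the repeats gave -1.54, -1.97 and -1.01. The difference was -0.58 in black and -2.44 in yellow. The call held in 20 of 21 alternatives (adjusted p from 0.00034 to 0.0147) and ended with the regions averaged per line and repeat (adjusted p = 0.181). Repeat 3 is the 1 repeat in which both lines were numbered together.

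Glyma.09G198900 had a larger estimate and did not pass. It measured 6.88, 3.32 and 1.62 RPKM in Clark 8 black and 0.279, 1.14 and 4.6 in Clark 18a black. In yellow it measured 191, 134 and 118 in Clark 8 and 12.1, 13.9 and 30.9 in Clark 18a. The yellow libraries of the lines did not overlap, while in black the order of the lines turned in repeat 3. The line difference was -1.91 (limma SE 0.39, adjusted p = 0.0524; between 0.000767 and 0.524 in 21 alternatives), and the repeats gave -3.25, -2.09 and -0.40. It passed in 6 of 21 alternatives, among them the omission of all repeat 3 libraries, where line and library numbering cannot be told apart.

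Within the yellow region alone, all Clark 18a libraries lay below all Clark 8 libraries for 9 of the 40 (9.77% of all genes tested) and above them for 2 (8.1%). In the black saddle the counts were 2 below (2.93%) and 0 above (5.06%). These levels entered the rule and were not tested. The 2 that were higher in Clark 18a yellow were Glyma.18G280000 and Glyma.18G280100, which are neighbours on chromosome 18. Glyma.18G280000 measured 3.7, 3.15 and 5.23 RPKM in Clark 8 yellow and 6.84, 9.45 and 8.53 in Clark 18a yellow. Glyma.18G280100 measured 4.82, 3.76 and 4.5 against 7.44, 12.4 and 8.35. Both stayed at or under 0.507 RPKM in every black library. Their line differences over both regions, 0.54 (limma adjusted p = 0.0716) and 0.51 (adjusted p = 0.0907), did not pass. They passed in 4 and 2 of 21 alternatives, the replicate block among them, and their adjusted p was 0.558 and 0.579 with the regions averaged per line and repeat.

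Among the genes lower in Clark 18a yellow were Glyma.04G229900, Glyma.10G186500 and Glyma.01G127200. Glyma.04G229900 gave 58.4, 45.1 and 70.7 RPKM in Clark 8 yellow and 14.4, 13.8 and 30.3 in Clark 18a yellow. Glyma.10G186500 gave 35.1, 19.8 and 11.4 against 5.22, 7.28 and 6.17. Their averaged line differences were -1.29 and -0.99 (limma adjusted p = 0.0849 and 0.0964) and did not pass. They passed in 5 and 4 of 21 alternatives, the replicate block among them, and their adjusted p was 0.553 and 0.579 with the regions averaged. In both genes the repeat 3 value was the one nearest to 0, at -0.41 and -0.44.

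**Figure D4:**
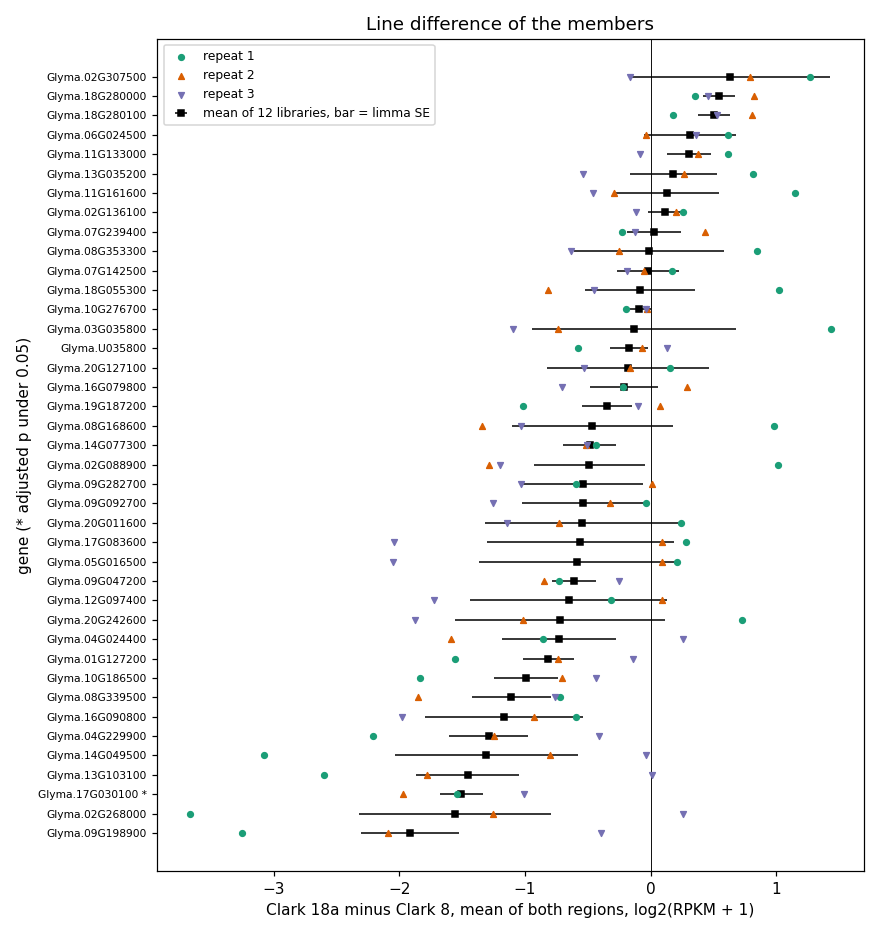
Clark 18a minus Clark 8 in log2(RPKM + 1), averaged over both regions, for each of the 40 genes, with the mean and its limma SE in black and the value of each repeat in colour. Glyma.17G030100, marked with an asterisk, is the gene called with the 12 libraries taken as independent, at -1.51, and 31 of the 40 means lie below 0.

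The lines were compared by the size of the region difference as a description. The difference was smaller in Clark 18a by 2.13 for Glyma.09G198900, by 1.86 for Glyma.17G030100 and by 1.14 for Glyma.08G339500. It was larger in Clark 18a by 1.08 for Glyma.20G242600, by 0.88 for Glyma.16G079800 and by 0.85 for Glyma.18G280100. The first of these was among the 11 that were near 0 in Clark 18a black repeat 3. Glyma.16G079800 gave 3.21, 2.93 and 4.65 RPKM in Clark 8 black and 0.895, 3.35 and 1.92 in Clark 18a black, with 14.3, 32.9 and 34.6 against 24.2, 44.7 and 24.9 in yellow. The lines overlapped in both regions for this gene.

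Repeat 3 was set against repeats 1 and 2 across all 4 groups. It compares libraries within groups, another contrast than the rule's, but not independent of it. The repeat 3 libraries entered the rule's means. Without Clark 18a black repeat 3, only 1 of the 11 genes near 0 there kept a difference of 2 in Clark 18a. Limma called 2 of the 40 (5%), 1 higher and 1 lower in repeat 3, where it called 27.7% of all genes tested, 12.5% higher and 15.2% lower. At an unadjusted p under 0.05 the counts were 7 of the 40 and 12685 of all genes tested. With the regions averaged per line and repeat, neither of these calls held. There limma called 1 other member, Glyma.20G011600 (-1.65, adjusted p = 0.0376), with 4.64% of all genes. That gene is among the 11 near 0 in Clark 18a black repeat 3. The gene that was higher, Glyma.02G307500, measured 0.605, 3.56 and 13.6 RPKM in Clark 8 black and 4.7, 26.6 and 113 in yellow. Its Clark 18a libraries measured 2.65, 4.26 and 11.4 in black and 13.5, 70.6 and 107 in yellow. Repeat 3 was the highest library of all 4 groups. The term was 2.22 (SE 0.54 and adjusted p = 0.0145 by limma; between 0.00171 and 0.0877 in 20 alternatives), and the call ended with the regions averaged (adjusted p = 0.0877) and without Clark 8 black repeat 3 (adjusted p = 0.0526) or Clark 8 yellow repeat 3 (0.0555).

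The gene that was lower, Glyma.13G035200, had a term of -0.86 (SE 0.26 and adjusted p = 0.0355 by limma; between 0.00637 and 0.139 in 20 alternatives). Its repeat 3 was the lowest library in 3 of the 4 groups, and the exception was Clark 8 yellow. The call ended in 12 of the 20 alternatives, with the highest adjusted p without Clark 18a yellow repeat 3. The 11 genes near 0 in Clark 18a black repeat 3 were not called in the fit of 12 libraries, with terms of -1.65 to -0.77 and limma adjusted p-values of 0.0933 to 0.34. In them repeat 3 minus the mean of repeats 1 and 2 was -2.54 to -1.13 in Clark 8 black and -5.01 to -2.57 in Clark 18a black. In yellow it was above 0, at 0.13 to 1.34 in Clark 8 and 0.10 to 0.63 in Clark 18a, and the term averages these opposite signs.

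The genes were spread over the genome and were short. By identifier they lay on 19 of the 20 chromosomes, with none on chromosome 15, and at most 4 on any chromosome (2 and 9). Their median coding length was 594 bases, with a range of 177 to 1797, and 20 of the 40 (50%) were under 600 bases. Over all genes tested the median was 1068 and 23.6% were that short, and over the 292 genes of the opposite rule these values were 848 and 30.8%. A single transcript model was listed for 35 of the 40 (87.5%), as for 62.2% of all genes tested. The other 5 genes had 8 further models, and all 8 met the rule too. In Glyma.02G268000, with 5 models, the differences ran from 3.74 to 3.88 in Clark 8 and from 3.08 to 3.20 in Clark 18a, but whether a hit was counted for each model it matched is not given.

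The median level was 32.1 RPKM in yellow and 5.42 in black, against 4.27 and 4.19 over all genes tested. For the 292 genes of the opposite rule it was 0.664 in yellow and 12.1 in black. The rule sets these levels in part, since a log2(RPKM + 1) difference of 2 needs a yellow level well above 1. Of the line and repeat 3 comparisons over 12 libraries, the first called 0 of the 292 between the lines, of which 16 had an unadjusted p under 0.05. Between repeat 3 and the others 47 of them, 41 higher and 6 lower, were called (16.1%).

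Neighbouring members were few. Glyma.18G280000 and Glyma.18G280100 were the only members within 5 gene positions of each other. Of the 191 tested genes that lay within 5 positions of a member and were not members, 8 (4.19%) were at least 1 higher in yellow in both lines, as were 1.11% of all genes tested. On chromosome 2 the neighbours of Glyma.02G136100 stood out after the values were seen. Glyma.02G136000 had differences of 1.80 in Clark 8 and 3.24 in Clark 18a, Glyma.02G136200 had 1.51 and 1.68, and Glyma.02G136300 had 1.11 and 1.45, so that 4 successive genes were higher in yellow. On chromosome 8 the genes on each side of Glyma.08G353300 behaved alike, with 1.77 and 1.60 for Glyma.08G353200 and 1.64 and 1.36 for Glyma.08G353400. How reads that match several related genes were treated is not given, so shared reads between neighbours or related members were not tested.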

How the data were processed

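The members and the comparisons were chosen with earlier results of these data known. Polyadenylated RNA from 12 seed coat libraries was aligned with Bowtie 1, per the submitters' processing notes, and the authors deposited RPKM values for 88647 transcript models with coding and cDNA lengths, per the file headers. For the genome build, annotation version, strandedness and handling of multiple hits, the answer is not given in the sources used here. Low RPKM values times cDNA length were whole multiples (within 0.05) of 1 hit, which gave the summed hits; counting error is small at this depth, except for values of a few hits.

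Each gene was its longest cDNA model. Models were fitted to log2(RPKM + 1) in R 4.3.3 by limma 3.58.1 (intensity trend, 1 mean per group, all 12 libraries, genes with RPKM of at least 1 in at least 3 libraries), with Benjamini-Hochberg adjustment over 30775 genes, two-sided. On this scale the changes of genes at low level are understated. Contrasts were Clark 18a minus Clark 8 averaged over regions, and a repeat 3 term added to the group means. Both were tested on simulated data with independent libraries. Since same-numbered regions of a line deviated together (correlations of 0.52 to 0.75), both were also fitted to the mean of the regions per line and repeat. Exact permutation of 3 against 3 libraries cannot give a p below 0.1. P-values set a difference against the spread between these libraries, which the fits of 12 libraries take as independent.

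Named genes were the 12 members with the largest smaller difference, the called members, those nearest the threshold, neighbouring members, the 5 highest in yellow and the 3 with the largest line difference in each direction of the region difference; others were chosen after their values were seen. Annotation lists and promoter motifs had been planned and were not used, since 0 lines of the reference table carry these identifiers.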

Additional observations from a re-analysis of the deposited data

How the results depend on the processing

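The rule gave 40 genes, and 168 with a pseudocount of 0.1, among them all 40. Leaving out each repeat of every group gave 23 to 53, the lowest without repeat 3. Without Clark 18a black repeat 3 alone, an alternative chosen after seeing the data, 28 genes met it, 26 of the 40 among them. Summed models, the most abundant model and a median shift per library gave 50, 41 and 38. The line difference called 1 member in limma, and 10 with array weights, 8 without all repeat 3 libraries 6 with the replicate block and 0 with the regions averaged per line and repeat, an alternative chosen after seeing the data. Leaving out single libraries gave 1 to 4, with 4 without Clark 8 yellow, Clark 18a black or Clark 18a yellow repeat 3. Glyma.17G030100 was called in all of these except the averaged one. Over all 30775 genes tested the line calls went from 235 to 6684 with array weights, 5963 without repeat 3 and 1899 with the block. Omitting single libraries gave 54 to 1407 such calls. At a minimum RPKM of 5 there were 71, out of 15958 genes. The repeat 3 term called 2 members, 1 with no filter on low values, 1 with array weights and 1 to 3 without single libraries. It called 3 with the repeat number as a block and 1, neither of the 2, with the regions averaged. Over all 30775 genes tested the repeat 3 calls went from 8530 to 8679 with array weights and 8911 with the block. They fell to 1428 with the regions averaged, and ran from 5547 to 8988 without single libraries. With no filter on low values there were 8412, out of 52191 genes. Same-numbered black and yellow libraries of a line deviated together in every pair (0.52 to 0.75, against at most 0.13 for other numbers). The number was therefore read as pairing regions within a line. Deviations within a group sum to 0, so same-number and other-number values depend on each other. Across lines the lowest same-number correlation was 0.04, so pairing there was not shown. By repeat these ran from 0.23 to 0.33 in repeat 1, 0.04 to 0.15 in repeat 2 and 0.23 to 0.50 in repeat 3. Over all pairs of groups, those within a line included, a library was most like its own number in 29 of 36 readings. These readings are not independent, for the same reason. Split at 0.5 RPKM in place of 1, 7 members in place of 13 were low in black in both lines. The causes were not tested. The lowest values rest on few hits, such as 1 hit in Clark 18a black repeat 3 for Glyma.08G168600. Repeats 1 and 2 of that group had 1688 and 455 hits for this gene.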
